A study of Homo sapiens with 6 samples.

Results

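The genes described here are 36 genes induced by low oxygen or controlling the hypoxia-inducible factors (HIF), out of the 58735 genes of a human RNA sequencing table. They were chosen as the rows whose symbol was on a list written for HIF control, angiogenic and secreted factors, mitophagy and mitochondria, collagen modification, chromatin, and stress, and all 36 were found, each in 1 row. The study compared 3 libraries labelled shPAK5, given as a PAK5 knockdown, with 3 libraries labelled shNC, given as wild type. All 6 came from cells labelled MB231, taken here as the breast cancer line MDA-MB-231, and PAK5 is a p21-activated serine/threonine kinase. The labels give no oxygen level, cell density, vector or number of clones for either group. They do not say whether the replicates were grown apart, and each p-value therefore reflects only library-to-library spread, part of which may be technical.

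HIF is a dimer of an oxygen-sensitive alpha subunit (HIF1A or EPAS1) and the stable partner ARNT. With oxygen present, prolyl hydroxylases of the EGLN family mark the alpha subunit, the VHL ubiquitin ligase binds the mark, and the subunit is degraded, while the asparagine hydroxylase HIF1AN blocks its contact with coactivators. In low oxygen the dimer binds the core letters ACGTG or GCGTG near its targets, which raise glycolysis, blood vessel growth, collagen maturation and removal of mitochondria. This control acts on protein, so that mRNA levels of HIF1A or VHL are no measure of HIF activity.

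Promoter windows were read to show where the core letters stand in members on which the results turn, and in low members for contrast. RefSeq windows (GRCh38.p14) were found for 29 of the 36 members, 42 windows in all since some genes have several starts. None was found for VEGFA, STC1, LOXL2 and JMJD6, nor for BNIP3L, VHL and NDRG1, which were higher in every shPAK5 library. In the 250 bases before the start, ACGTG or GCGTG on either strand was present in 30 of the 42 member windows (71.4%), in 43.2% of all 35116 windows and in 56.4% of the 11638 windows of protein-coding genes tested here. Member windows were richer in G and C (median 68.6%, against 64.8% in windows of the protein-coding genes tested and 58% in all windows). The first 4 windows below belong to genes higher in every shPAK5 library and the last 2 to genes with few or no reads. Capitals mark the core letters, read as ACGTG or GCGTG on the printed strand or as CACGT or CACGC for the other strand, and CACGTG counts on both.
ERO1A: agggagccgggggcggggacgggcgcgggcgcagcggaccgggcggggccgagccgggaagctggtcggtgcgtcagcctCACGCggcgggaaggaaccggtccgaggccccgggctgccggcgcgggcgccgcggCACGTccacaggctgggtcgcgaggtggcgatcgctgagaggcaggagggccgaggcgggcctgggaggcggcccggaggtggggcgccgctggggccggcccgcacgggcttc
P4HA1: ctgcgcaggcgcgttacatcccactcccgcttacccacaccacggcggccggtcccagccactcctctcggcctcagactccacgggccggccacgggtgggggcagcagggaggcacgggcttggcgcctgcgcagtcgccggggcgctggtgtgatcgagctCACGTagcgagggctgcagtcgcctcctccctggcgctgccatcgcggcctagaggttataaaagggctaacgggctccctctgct
INSIG2: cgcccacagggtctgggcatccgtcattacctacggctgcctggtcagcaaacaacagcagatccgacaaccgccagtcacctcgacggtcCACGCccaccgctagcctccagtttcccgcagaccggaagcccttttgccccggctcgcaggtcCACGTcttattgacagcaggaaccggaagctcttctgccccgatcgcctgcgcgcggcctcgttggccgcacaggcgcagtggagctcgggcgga
ADM: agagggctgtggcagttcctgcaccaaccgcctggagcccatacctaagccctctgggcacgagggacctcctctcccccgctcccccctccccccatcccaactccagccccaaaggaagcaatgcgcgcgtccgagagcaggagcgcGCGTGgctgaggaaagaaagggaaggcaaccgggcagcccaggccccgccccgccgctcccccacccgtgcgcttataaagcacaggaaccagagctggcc
BNIP3: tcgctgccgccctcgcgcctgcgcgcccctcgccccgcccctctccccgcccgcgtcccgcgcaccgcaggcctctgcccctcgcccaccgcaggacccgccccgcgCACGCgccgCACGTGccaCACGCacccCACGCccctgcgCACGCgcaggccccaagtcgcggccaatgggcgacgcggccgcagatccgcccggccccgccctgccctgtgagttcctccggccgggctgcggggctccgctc
PPP1R3C: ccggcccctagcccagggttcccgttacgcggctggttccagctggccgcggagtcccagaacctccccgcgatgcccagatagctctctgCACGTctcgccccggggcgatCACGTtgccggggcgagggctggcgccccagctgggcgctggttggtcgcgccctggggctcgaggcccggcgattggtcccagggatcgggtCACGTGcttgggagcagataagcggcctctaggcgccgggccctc
The windows lie at chr14:52695559-52695808 on the minus strand for ERO1A, chr10:73096867-73097116 on the minus strand for P4HA1, chr2:118088221-118088470 on the plus strand for INSIG2, chr11:10304823-10305072 on the plus strand for ADM, chr10:131981924-131982173 on the minus strand for BNIP3 and chr10:91633072-91633321 on the minus strand for PPP1R3C. BNIP3 held 6 cores and PPP1R3C 4, more than the 2 of ERO1A, the 2 of INSIG2, and the 1 of P4HA1 and of ADM. These windows were picked, and those of the low members EGLN3, RORA and TMEM45A held 0 cores. A core was present in 81.8% of the 11 windows of tested members with separate groups and 64.7% of the 17 of those with overlap. The 11 windows belong to 7 of the 10 members with separate groups. Among the 14 windows of untested members the share was 71.4%. The relation of cores to level was not tested. A match is a string of letters and not a shown binding site.

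The deposited values were FPKM, reads per kilobase of exon scaled to library depth, behind which stood 15085168 to 18146091 reads per library. PAK5 had 0 reads in each of the 6 libraries, which allows up to 0.0335 to 0.0403 FPKM in a library (3 reads, counting error only), and the files thus hold no check of the knockdown. Of 11 markers of the state of MDA-MB-231, VIM and CD44 were abundant (164 and 60.9 FPKM in shPAK5, 149 and 55.2 FPKM in shNC), whereas the mesenchymal genes TWIST1 and CDH2 had 0 reads and FN1 and SPARC averaged under 0.2 FPKM in both groups. The kinase AXL averaged 21.3 FPKM in shPAK5 and 19.2 FPKM in shNC. ZEB1, a transcription factor, averaged 2.24 FPKM in shPAK5 and 2.58 FPKM in shNC. Of the hormone receptors that a triple-negative line lacks, PGR had 0 reads and ESR1 5 reads over the 6 libraries. ERBB2, the other receptor that defines a triple-negative line, was expressed, at 9.63 FPKM in shPAK5 and 9.92 FPKM in shNC, with overlap. Of those 11 markers, 5 averaged at least 1 FPKM: VIM, CD44, AXL, ZEB1 and ERBB2. For PGR, ESR1 and ERBB2 a low level is what goes with the label, so neither this count nor a sum measures agreement with the line. The level summed over the 11 was 257 to 261 FPKM in shPAK5 and 227 to 249 FPKM in shNC. These sums did not overlap, and their part in the results was not tested. All 6 epithelial markers were expressed, their summed level being 3380 to 3430 FPKM in shPAK5 and 3359 to 3522 FPKM in shNC. These sums overlapped, but CDH1 (5.84 FPKM in shPAK5 and 4.64 FPKM in shNC), EPCAM (128 FPKM in shPAK5 and 109 FPKM in shNC) and KRT19 (1465 FPKM in shPAK5 and 1410 FPKM in shNC) were higher in every shPAK5 library and KRT18 (805 FPKM in shPAK5 and 874 FPKM in shNC) lower in every one, and their part in the results was not tested. The sum over 6 blood markers was at most 0.376 FPKM in shPAK5 and 0.194 FPKM in shNC, and the sum over 5 endothelial markers at most 0.0931 FPKM in shPAK5 and 0.0791 FPKM in shNC. Fibroblast markers summed to 114 to 115 FPKM in shPAK5 and 102 to 125 FPKM in shNC, nearly all of it LUM, with COL1A2 at 0 reads. The markers of the line were thus met in part, with TWIST1, CDH2, FN1 and SPARC at or near 0 beside abundant epithelial genes, and the cells are called MB231 as labelled. Replicates differed more than sampling noise, with a chi-square per degree of freedom of 2.32 to 2.82 within shPAK5 and 3.22 to 9.31 within shNC, and shNC replicate 1 stood apart from the other shNC libraries in how its values followed GC content. Leaving it out changed several calls and medians, and the main changes are given beside the values they touch. In bulk RNA, fewer cells of a type and less RNA per cell cannot be told apart.

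Of the 36 members, 23 averaged at least 1 FPKM over the 6 libraries and were tested, and 13 did not. None of the 23 passed limma at a Benjamini-Hochberg adjusted p of 0.05 over all 11237 tested genes, of which 0.116% passed, and 8 had an unadjusted p under 0.05, against 17% of all tested genes. In limma-voom on the reads recovered from the table, 2 of the 23 rose and none fell, where 0.863% of all tested genes rose and 1.12% passed in either direction. These were ERO1A and BNIP3L. Of the 23, 10 members had all 3 shPAK5 libraries above all 3 shNC libraries and 0 had them below, beside 12.6% of all tested genes above and 10.5% below. The median difference over the 23 was 0.10 on the log2(FPKM + 1) scale, beside 0.0038 over all tested genes, and 18 of 23 were positive beside 51.3% of all. That scale understates the difference of low genes. The members were chosen with earlier results of these data known, so their shares and median beside those of all genes are a description and not a test. By role, the members higher in every shPAK5 library were 3 of 4 tested for stress and metabolism (median difference 0.24), 2 of 3 for mitophagy and mitochondria (0.12), 2 of 5 for HIF control (0.10), 1 of 3 for angiogenic and secreted factors (0.032), 1 of 3 for collagen modification (0.032) and 1 of 5 for chromatin and transcription (0.0065). Without shNC replicate 1 the median was -0.020 for angiogenic and secreted factors, -0.034 for collagen modification and 0.066 for chromatin and transcription, so that the order of these 3 roles rests on that library. Once each library's trend with GC content was subtracted, the medians were 0.21, 0.047, 0.098, 0.081, 0.081 and -0.013, in the order of roles above. Mitophagy and mitochondria then stood below HIF control, angiogenic and secreted factors, and collagen modification. The differences between roles were not tested.

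**Figure D1:**
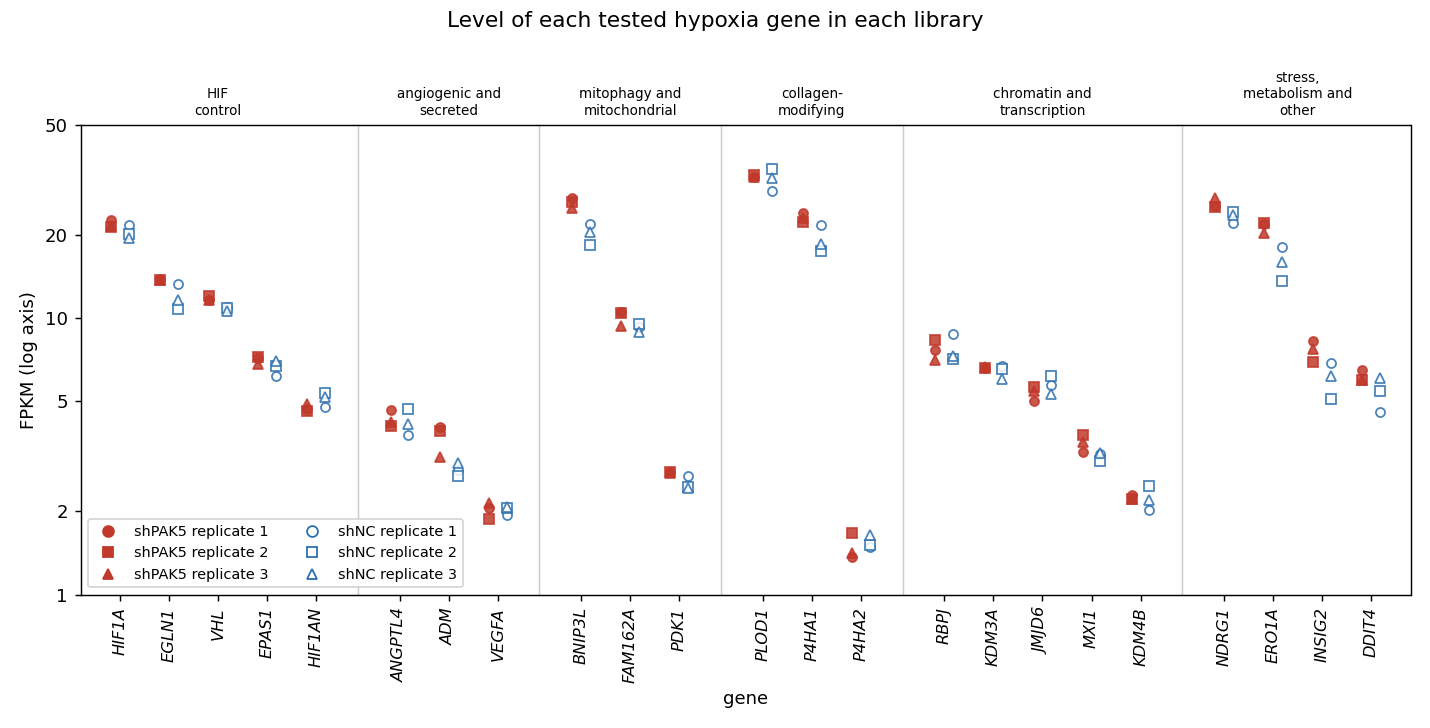
Level of each of the 23 tested members in each library, as FPKM on a log axis, with shPAK5 (filled red) left of shNC (open blue) and 1 symbol per replicate number, grouped by role. P4HA2 is the lowest, near 1.5 FPKM, PLOD1 the highest, above 28 FPKM, and ERO1A and BNIP3L show a gap between the groups.

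Of the 7 genes of HIF control, 5 averaged at least 1 FPKM, and none passed in limma. HIF1A, an alpha subunit of HIF, was at 22.7, 21.3 and 21.6 FPKM in shPAK5 and at 21.7, 20.1 and 19.5 FPKM in shNC. The groups overlapped, and limma gave 0.10 ± 0.05 (SE, log2 scale, adjusted p = 0.392), which turned to -0.020 once each library's trend with GC content was subtracted. Without shNC replicate 1 the HIF1A groups did not overlap, and the limma difference was 0.14. The adjusted p of HIF1A was then 0.0849 in limma and 0.0473 in limma-voom, where limma-voom called 2532 of 11237 genes. EPAS1, the alpha subunit also called HIF-2 alpha, was at 7.20, 7.22 and 6.81 FPKM in shPAK5 and at 6.18, 6.68 and 6.97 FPKM in shNC. These groups overlapped too (0.09 ± 0.06, limma adjusted p = 0.477, and 0.045 without shNC replicate 1), and HIF1A was the more abundant subunit in every library. VHL, the substrate receptor of the ligase that removes HIF, was at 11.6, 12.0 and 11.6 FPKM in shPAK5 and at 10.9, 10.8 and 10.6 FPKM in shNC. The groups did not overlap, but the difference of 0.11 ± 0.04 (SE, log2 scale) did not pass in limma (adjusted p = 0.275).

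EGLN1, the main oxygen-sensing prolyl hydroxylase and itself a HIF target, was at 13.8, 13.8 and 13.7 FPKM in shPAK5 and at 13.3, 10.8 and 11.6 FPKM in shNC. The shPAK5 libraries lay within a narrow band above all shNC libraries, of which replicate 1 stood nearest to them. The difference was 0.20 ± 0.07 (SE, log2 scale, limma adjusted p = 0.237), and without shNC replicate 1 EGLN1 rose by 0.28 (limma adjusted p = 0.0334), in a fit that called 8.34% of all genes and 5.53% as higher. EGLN2, the prolyl hydroxylase known not to need hypoxia for its expression, was low, with 0.494, 0.422 and 0.393 FPKM in shPAK5 and 0.485, 0.707 and 0.648 FPKM in shNC. It was under the filter on low values, the groups overlapped through shNC replicate 1 alone, and 30.6% of its exonic bases are shared with the read-through gene RAB4B-EGLN2 on the same strand. EGLN3, the prolyl hydroxylase most strongly induced by hypoxia in many cells, had 0, 10 and 6 reads in shPAK5 and 3, 5 and 3 reads in shNC, so that its mRNA was near the limit of detection. HIF1AN, the asparagine hydroxylase, was at 4.68, 4.60 and 4.88 FPKM in shPAK5 and at 4.78, 5.37 and 5.18 FPKM in shNC. It was the only tested gene of HIF control with a negative difference, -0.09 ± 0.06 (SE, log2 scale, limma adjusted p = 0.443), and the groups overlapped through shNC replicate 1 alone. Without that library HIF1AN was lower in every shPAK5 library, by -0.13 in limma (adjusted p = 0.143). In limma-voom without it the difference was -0.17 (adjusted p = 0.0291), where 2532 of 11237 genes were called, 1098 of them lower.

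Among angiogenic and secreted factors, ADM stood apart between the groups and VEGFA did not. ADM encodes adrenomedullin, a vasodilator peptide, and was at 4.03, 3.89 and 3.14 FPKM in shPAK5 and at 2.83, 2.70 and 3.00 FPKM in shNC. All shPAK5 libraries were higher, though replicate 3 exceeded the highest shNC library by little. The ratio of mean FPKM was 1.30, and the difference of 0.28 ± 0.09 (SE, log2 scale) did not pass in limma (adjusted p = 0.215). VEGFA, the main growth factor of blood vessels, was at 2.07, 1.87 and 2.14 FPKM in shPAK5 and at 1.95, 2.06 and 2.08 FPKM in shNC. The groups overlapped, and the 95% interval of the difference ran from -0.16 to 0.16 on the log2(FPKM + 1) scale. ANGPTL4, a secreted inhibitor of lipoprotein lipase, was the most abundant of these, at 4.64, 4.07 and 4.22 FPKM in shPAK5 and at 3.79, 4.68 and 4.14 FPKM in shNC, also with overlap (0.032 ± 0.079, limma adjusted p = 0.861). The stanniocalcins, secreted glycoprotein hormones, were close to absent: STC1 had 0 to 2 reads in every library of either group. STC2 had 0 reads in all 6, which over the pooled libraries allows up to 0.00976 FPKM in shPAK5 and 0.00960 FPKM in shNC.

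BNIP3L, also called NIX, is a receptor on the outer mitochondrial membrane that recruits autophagosomes, and it rose in limma-voom. It was at 27.1, 26.3 and 24.9 FPKM in shPAK5 and at 21.9, 18.4 and 20.4 FPKM in shNC. The lowest shPAK5 library exceeded the highest shNC library by more than the spread within shPAK5, and the ratio of means was 1.29. The difference was 0.36 ± 0.07 (SE, log2 scale), with an adjusted p of 0.129 in limma and 0.0138 in limma-voom. Leaving out shNC replicate 1 gave an adjusted p of 0.0312 in limma, and the GC correction gave 0.0473, in a fit that called 0.561% of all genes. Its exons overlap those of PNMA2 on the other strand over 7.66% of their length, and whether strand was used in counting is not given in the sources used here.

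Its paralog BNIP3, the other hypoxia-induced mitophagy receptor and the gene whose window with 6 cores is printed above, was almost silent. BNIP3 had 13, 7 and 13 reads in shPAK5 and 4, 20 and 7 reads in shNC, or 0.125 ± 0.0429 FPKM in shPAK5 and 0.115 ± 0.0958 FPKM in shNC (SD, n = 3 each). PDK1 and PDK3, kinases that switch off pyruvate dehydrogenase, differed in level: PDK1 was at 2.78, 2.77 and 2.76 FPKM in shPAK5 and at 2.68, 2.45 and 2.43 FPKM in shNC. PDK1 was higher in every shPAK5 library, by 0.10 ± 0.06 (SE, log2 scale, limma adjusted p = 0.446), and by 0.022 after the GC correction, where its groups overlapped. PDK3 had 21 to 29 reads per shPAK5 library and 19 to 31 per shNC library and was not tested. FAM162A, a mitochondrial protein linked to cell death in hypoxia, was at 10.1 ± 0.668 FPKM in shPAK5 and 9.22 ± 0.311 FPKM in shNC (SD, n = 3 each), with overlap (0.12 ± 0.06, limma adjusted p = 0.346, and 0.047 with the GC correction).

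Collagen-modifying members ranged from the most abundant of the 36 to genes with a few reads. P4HA1, a catalytic subunit of collagen prolyl hydroxylase, was at 24.0, 22.2 and 23.0 FPKM in shPAK5 and at 21.7, 17.5 and 18.5 FPKM in shNC (chr10:73007217-73096974, GRCh38, minus strand). All shPAK5 libraries were higher, shNC replicate 1 coming closest to them. The difference was 0.25 ± 0.08 (SE, log2 scale, limma adjusted p = 0.215), 0.34 without shNC replicate 1 (limma adjusted p = 0.0312) and 0.16 with the GC correction (limma adjusted p = 0.148). P4HA2, the alternative catalytic subunit, was far lower at 1.49 ± 0.158 FPKM in shPAK5 and 1.55 ± 0.0839 FPKM in shNC (SD, n = 3 each), with a difference of -0.037 ± 0.081 on the log2 scale. PLOD1, a lysyl hydroxylase, had the highest FPKM of all, at 32.3, 32.8 and 32.2 FPKM in shPAK5 and at 28.8, 34.4 and 32.1 FPKM in shNC. The shPAK5 values lay inside the range of shNC. PLOD2, the lysyl hydroxylase of the collagen telopeptide, had 0 to 2 reads per shPAK5 library and 0 to 3 per shNC library. Of the enzymes that oxidise lysine for collagen cross-links, LOX had 3 to 6 reads per shPAK5 library and 1 to 3 per shNC library. LOXL2 averaged 0.439 FPKM in shPAK5 and 0.443 FPKM in shNC.

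Of the 5 tested members acting on chromatin and transcription, 3 had a positive and 2 a negative difference, and none passed in limma or limma-voom. MXI1, a repressor that competes with MYC for its partner MAX, was at 3.28, 3.77 and 3.57 FPKM in shPAK5 and at 3.23, 3.05 and 3.24 FPKM in shNC. The groups did not overlap, shPAK5 replicate 1 standing barely above the highest shNC library, and limma gave 0.12 ± 0.06 (SE, log2 scale, adjusted p = 0.388). RBPJ, the DNA-binding partner of Notch, was the most abundant here, at 7.68, 8.35 and 7.05 FPKM in shPAK5 and at 8.76, 7.12 and 7.26 FPKM in shNC. Its groups overlapped and its difference of -0.0012 took either sign across settings. KDM3A and KDM4B, histone H3 lysine 9 demethylases that need oxygen, averaged 6.62 and 2.24 FPKM in shPAK5 and 6.41 and 2.23 FPKM in shNC, and JMJD6, an oxygen-dependent hydroxylase, averaged 5.35 FPKM in shPAK5 and 5.75 FPKM in shNC. The groups of all 3 overlapped, with limma estimates of 0.040 ± 0.054 for KDM3A, 0.0065 ± 0.075 for KDM4B and -0.087 ± 0.067 for JMJD6 (SE, log2 scale). RORA, a nuclear receptor, had 3 to 6 reads per shPAK5 library and 4 to 6 per shNC library.

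The largest log2 difference among the tested members was that of ERO1A, the oxidase that renews disulfide bond formation in the endoplasmic reticulum. ERO1A was at 21.8, 22.0 and 20.4 FPKM in shPAK5 and at 18.0, 13.7 and 16.0 FPKM in shNC (chr14:52639916-52695900, GRCh38, minus strand). Every shPAK5 library was above every shNC library, and within shNC the values ran from replicate 2, the lowest, to replicate 1. The ratio of means was 1.35, and the difference was 0.41 ± 0.09 (SE, log2 scale), with an adjusted p of 0.158 in limma and 0.0138 in limma-voom. It was 0.33 with the GC correction (limma adjusted p = 0.0656) and 0.50 without shNC replicate 1 (limma adjusted p = 0.0312). The antisense gene AL133453.1 overlaps 7.70% of its exonic bases.

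INSIG2, an anchor that holds back sterol-regulated transcription, was at 8.26, 6.96 and 7.72 FPKM in shPAK5 and at 6.87, 5.10 and 6.15 FPKM in shNC. The groups were narrowly separate, with shNC replicate 1 just under the lowest shPAK5 library. The difference of 0.30 ± 0.10 (SE, log2 scale) did not pass in limma (adjusted p = 0.226) and was 0.16 with the GC correction. NDRG1, a stress-induced protein of differentiating cells, was at 25.3, 25.2 and 27.1 FPKM in shPAK5 and at 22.1, 24.1 and 23.6 FPKM in shNC. It too was higher in every shPAK5 library, by 0.15 ± 0.05 (SE, log2 scale, limma adjusted p = 0.233). DDIT4, also called REDD1, an inhibitor of mTORC1, averaged 6.14 ± 0.298 FPKM in shPAK5 and 5.36 ± 0.751 FPKM in shNC (SD, n = 3 each), with overlap (0.17 ± 0.09, limma adjusted p = 0.362, and 0.080 without shNC replicate 1), and 41.2% of its exonic bases are shared with DDIT4-AS1 on the other strand. ANKRD37, a HIF target of unclear role, had 20 to 35 reads per shPAK5 library and 20 to 26 per shNC library, and UFSP2 overlaps 35.2% of its exonic bases. TMEM45A, a membrane protein, had 6 reads over the shPAK5 libraries and 1 over the shNC libraries. PPP1R3C, which directs a phosphatase to glycogen, had 0 reads in all 6, allowing up to 0.0237 FPKM over the pooled shPAK5 libraries and 0.0233 FPKM over the pooled shNC libraries.

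**Figure D2:**
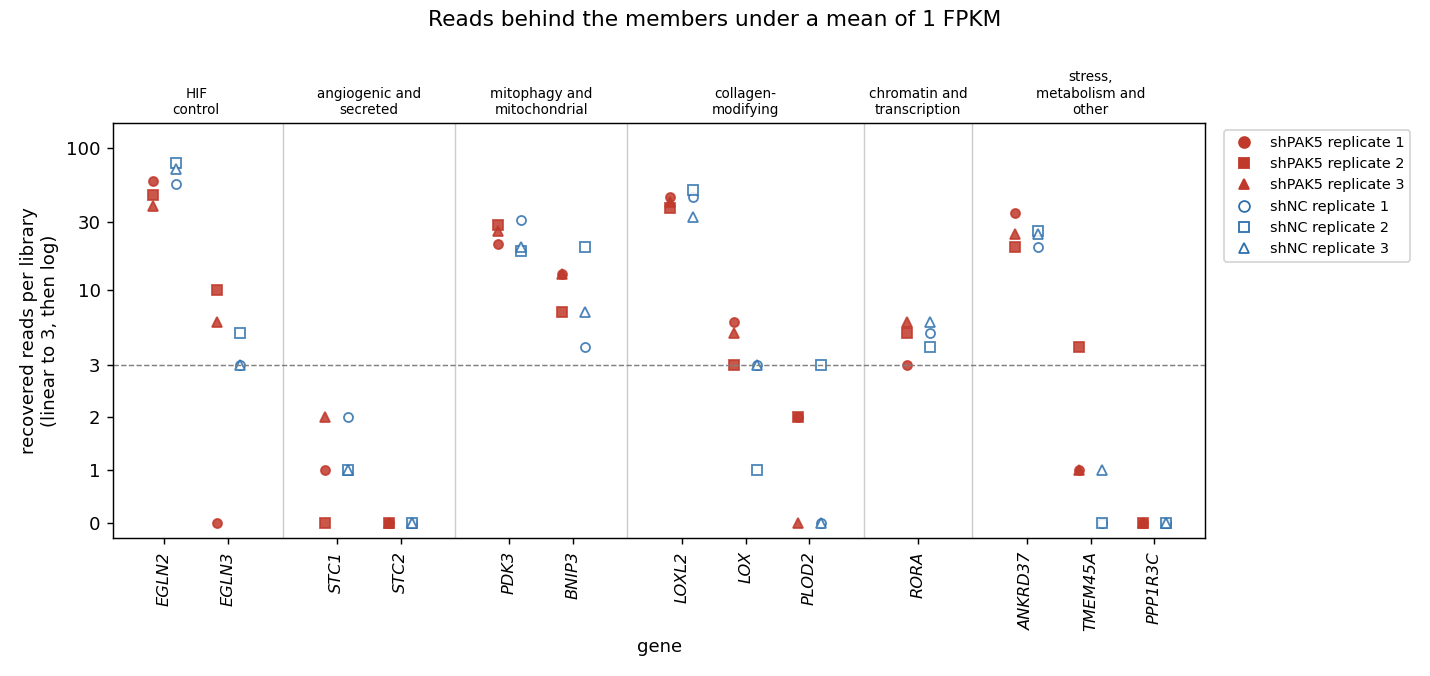
Reads recovered per library for the 13 members under a mean of 1 FPKM, on an axis that is linear to 3 and logarithmic above, with shPAK5 (filled red) left of shNC (open blue); the dashed line marks 3 reads. STC2 and PPP1R3C lie at 0 in every library, and no member here has separate groups.

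The 13 members under the filter included the hypoxia-inducible genes EGLN3, BNIP3, LOX, PLOD2, STC1, STC2 and ANKRD37. Other hypoxia-inducible members, among them NDRG1, ADM, VEGFA and ANGPTL4, were above it. The groups of each of the 13 overlapped, and with no filter on low values 0 of the 34 members with any read passed in limma, where 0.0266% of all 26316 genes passed, and 8 had an unadjusted p under 0.05, beside 9.5% of all genes. In limma-voom with no filter 2 passed, again ERO1A and BNIP3L, beside 1.1% of all genes. No low member was separate between the groups over the 6 libraries, though EGLN2 overlapped through shNC replicate 1 alone. In limma-voom with no filter EGLN2 had a difference of -0.47 (unadjusted p = 0.0488, adjusted p = 0.421). In that fit 3102 of 26316 genes had an unadjusted p under 0.05.

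Compared library by library, each of the 9 pairs of a shPAK5 with a shNC library had a positive median difference over the 23 members, from 0.067 for shPAK5 replicate 3 over shNC replicate 3 to 0.125 for shPAK5 replicate 1 over shNC replicate 1. Over all tested genes the medians of these pairs ran from -0.0014 to 0.011. Between 15 and 19 of the 23 members were higher in the shPAK5 library of a pair, beside 49.5% to 52.7% of all tested genes. The lowest value of a member fell in a shNC library for 18 of the 23 genes, 6 of them in replicate 1, 7 in replicate 2 and 5 in replicate 3. The highest fell in a shPAK5 library for 16 of 23, 9 of them in replicate 1. Counts of lowest and highest libraries were not taken over all tested genes, so those of the members are a description only.

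**Figure D3:**
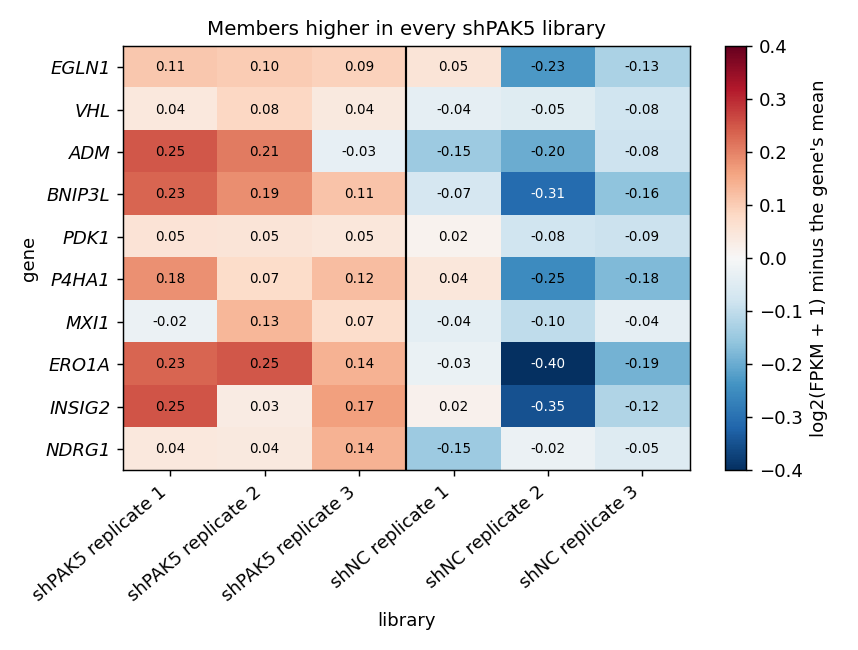
Deviation of log2(FPKM + 1) from the gene's mean in each library for the 10 members higher in every shPAK5 library, shPAK5 libraries left of the line and shNC libraries right of it. ERO1A spans from -0.40 in shNC replicate 2 to 0.25 in shPAK5 replicate 2, and EGLN1, P4HA1, PDK1 and INSIG2 are slightly above their mean in shNC replicate 1.

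The libraries also differed in how expression followed GC content. Across tested genes, the Spearman correlation of a library's deviation with transcript GC content was -0.36, -0.35 and -0.24 in shPAK5 replicates 1 to 3 and -0.43, 0.58 and 0.50 in shNC replicates 1 to 3, so that shNC replicate 1 had the sign of the shPAK5 libraries. The difference between groups had a correlation of -0.47 with GC content over these genes, which share libraries and are no replicates. Tested members had a median GC content of 47.1%, against 49.4% for all tested genes, and ERO1A, BNIP3L, P4HA1 and INSIG2 lay at 41.5, 43.1, 40.2 and 37.3%. ADM and NDRG1, also higher in every shPAK5 library, lay above the median at 58.7 and 55.6%, and their differences were 0.33 and 0.19 with the GC correction. With the GC correction 10 members were still higher in every shPAK5 library and 0 lower, beside 12% and 11.8% of all tested genes, and the median difference was 0.081. Of these genes 8 were among the 10 without the correction, EPAS1 and DDIT4 taking the place of PDK1 and MXI1. Without shNC replicate 1 limma called 4 of 23 members, ERO1A, BNIP3L, P4HA1 and EGLN1, all higher, where 5.53% of all genes were called higher, and with that library left out and the GC correction added it called none, in a fit that called 0.151% of all genes. In that fit 10 members had an unadjusted p under 0.05, beside 19.8% of all tested genes.

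**Figure D4:**
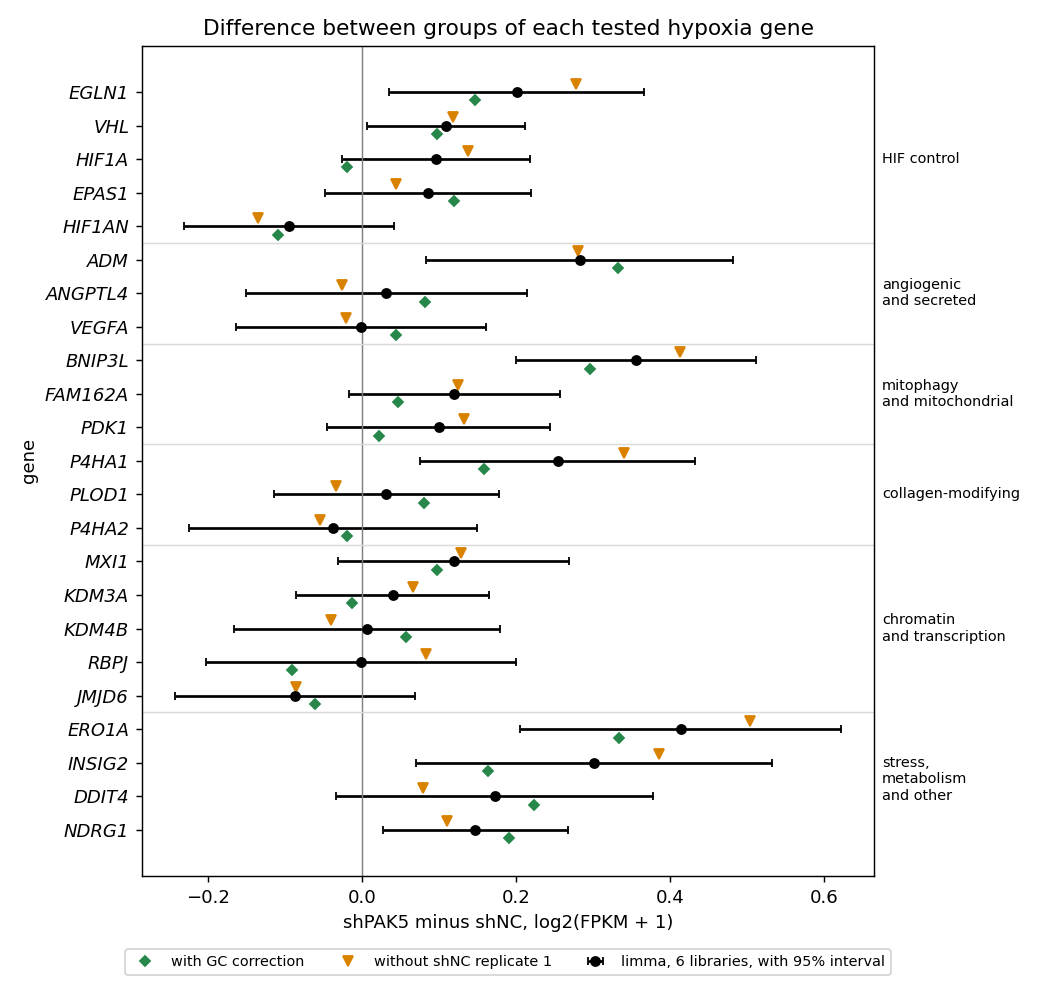
Difference of shPAK5 minus shNC in log2(FPKM + 1) for the 23 tested members by role, with the limma estimate and 95% interval over 6 libraries (black), the estimate with the GC correction (green) and the estimate without shNC replicate 1 (orange). ERO1A and BNIP3L have the largest estimates, 0.41 and 0.36, and HIF1A lies below 0 with the GC correction.

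Other genes of the same processes were read from 5 wider lists, whose 2 most abundant genes are given and whose genes at or near 0 reads were named after their values were seen. Of 35 other hypoxia-inducible genes 31 were tested, none passed in limma or limma-voom, 18 differences were positive and 13 negative, and the median was 0.0057. Among the 31, 6 were higher in every shPAK5 library and 4 lower (CA12, ENO1, TPI1 and HK1), beside 12.6% and 10.5% of all tested genes. The glycolytic enzymes GAPDH and ENO1, the most abundant of this list, were at 1012 and 539 FPKM in shPAK5 and at 1052 and 564 FPKM in shNC. CA9, a surface carbonic anhydrase named after its values were seen, averaged 143 ± 2.99 FPKM in shPAK5 and 123 ± 4.26 FPKM in shNC (SD, n = 3 each). It did not pass in limma (adjusted p = 0.130) or limma-voom (adjusted p = 0.0526), and rose in limma with the GC correction (adjusted p = 0.0243) and without shNC replicate 1 (adjusted p = 0.0334), where no other gene of this list passed. The fit with the GC correction called 0.561% of all genes, and the fit without shNC replicate 1 called 8.34%. Of 26 other genes of the HIF complex and its control, 22 were tested and none passed in limma or limma-voom, with 8 positive and 14 negative, nor did any pass in limma without shNC replicate 1. The chaperones HSP90AB1 and HSP90AA1, which hold the alpha subunit, were at 530 and 268 FPKM in shPAK5 and at 535 and 283 FPKM in shNC. ARNT, the HIF partner, also named after its values were seen, was at 7.03 FPKM in shPAK5 and 7.15 FPKM in shNC, while ARNT2 and HIF3A had 3 reads and 1 read over all 6 libraries.

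Of 20 angiogenic ligands and receptors 9 were tested, 6 positive and 3 negative with a median of 0.11, and none passed in limma or limma-voom. Without shNC replicate 1 the median was 0.064, and limma called NRP1 (adjusted p = 0.0334), FGF2 (adjusted p = 0.0354) and ANGPT1 (adjusted p = 0.0435), all higher. That fit called 8.34% of all genes, 5.53% as higher. VEGFB and FGF2, the most abundant, were at 45.4 and 6.51 FPKM in shPAK5 and at 41.8 and 4.99 FPKM in shNC, and the receptor genes FLT1, KDR, RAMP2 and RAMP3 had 0 reads. Of 22 other mitophagy genes 18 were tested, 10 positive and 8 negative, with none past the threshold in either test, and without shNC replicate 1 limma called TAX1BP1 and TOMM20 higher and FKBP8 lower. Of these PHB2 and SQSTM1 were at 111 and 99.4 FPKM in shPAK5 and at 115 and 95.3 FPKM in shNC. Of 20 other collagen-modifying enzymes 13 were tested, 7 positive and 6 negative, and none passed in limma or limma-voom. Without shNC replicate 1 limma called TMEM38B higher and FKBP10 and SERPINH1 lower, in the same fit that called 8.34% of all genes. With the GC correction over the 6 libraries, limma called no gene of the angiogenic, mitophagy or collagen list, beside 0.561% of all genes. P4HB, the shared beta subunit that works with P4HA1, and the collagen chaperone SERPINH1 were at 172 and 60.3 FPKM in shPAK5 and at 170 and 65.4 FPKM in shNC. The median difference was 0.0086 over the mitophagy list and 0.015 over the collagen list (0.027 and -0.014 without shNC replicate 1), beside 0.0038 for all tested genes.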

How the data were processed

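The 6 libraries were grouped and numbered from their titles, 3 labelled shPAK5 and 3 labelled shNC. Library preparation used the NEBNext Ultra RNA kit from total RNA, per the labels' protocols. No aligner, counter or strand setting is given in the sources used here. The authors deposited FPKM per gene, per the file headers. The submitters' processing notes name the build mm10, but each of the 58735 rows had the same entry in human GENCODE 29 (GRCh38) for ID, position and exonic length. FPKM times length gave whole multiples of a step per library within 0.001 for 100% of values, which gave the reads. Chi-square per degree of freedom between replicates was 2.32 to 9.31, so all were kept as separate libraries.

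Differences were tested in R 4.3.3 with limma 3.58.1 (lmFit and trended eBayes, two-sided) on log2(FPKM + 1) for the 11237 genes averaging 1 FPKM or more, with Benjamini-Hochberg adjustment at 0.05 over all of them. An exact permutation test of 3 against 3 cannot go below p = 0.1. limma-voom used the reads with TMM scaling. The GC correction subtracted a loess curve (span 0.3) of each library's deviations on transcript GC content. The code was tested on simulated data. Limits for 0 reads are 3 reads and cover counting error only. Per-library values are given for HIF-control members, for members that passed in limma or limma-voom or had separate groups, and for the most abundant member of each role. VEGFA and several low members are given as well, chosen after their values were seen. The members and lists were chosen with earlier results of these data known. Figures were drawn with matplotlib 3.10.9 in Python 3.11.15.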

Additional observations from a re-analysis of the deposited data

How the results depend on the processing

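The count of genes past the threshold was 13 of all tested genes in limma, 7 with no filter, 31 at a mean of at least 5 FPKM, 20 with quantile normalization, 63 with the GC correction, 126 in limma-voom, 3187 with arrayWeights and 2 with a replicate block, and ranged from 2 to 937 when each library was left out, the 937 being without shNC replicate 1. In settings chosen after seeing the data, limma-voom called 289 without a filter and 2532 without shNC replicate 1. Members past the threshold were 0 in limma, 1 with the GC correction, 2 in limma-voom with or without the filter, 10 with arrayWeights, 7 in limma-voom without shNC replicate 1 (6 higher and 1 lower, HIF1AN), and 0 to 4 when each library was left out of limma. The members' median difference of 0.10 was 0.12 with a pseudocount of 0.1, 0.12 at a mean of at least 5 FPKM, 0.12 in limma-voom without a filter, 0.081 with the GC correction, 0.070 with it and without shNC replicate 1, and 0.037 with no filter, which adds the genes near 0. It ranged from 0.092 to 0.11 when each library was left out. Members higher in every shPAK5 library numbered 7 to 13 over settings chosen after seeing the data, against 10, while the share of all genes so separated ran from 7.08% with no filter to 26.1% without shNC replicate 1, so these counts are not comparable. Members lower in every shPAK5 library numbered 0 or 1 over these settings, beside 7.12% to 23.5% of all genes. Among the members chosen by rule for per-library values, signs turned for HIF1A with the GC correction (-0.020, and -0.036 without shNC replicate 1), for ANGPTL4 without shNC replicate 1 (-0.026 in limma, -0.037 in limma-voom) and without shPAK5 replicate 1 (-0.013), for PLOD1 without shNC replicate 1 (-0.034 and -0.043), and for RBPJ with arrayWeights (0.073), without shNC replicate 1 (0.083 and 0.089) and without shPAK5 replicate 3 (0.052), its range when each library was left out of limma being -0.055 to 0.083. The cause was not tested. Same-numbered libraries did not deviate together (correlations 0.065, -0.024 and 0.0090), so the replicate block rests on numbers alone; it called 0 members and 2 genes in all. Depth limits what can be said of the 13 members under 1 FPKM.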
